A study of Mus musculus with 4 samples.

Results

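The major urinary proteins were described through 10 of their genes, Mup3, Mup5, Mup7, Mup11, Mup12, Mup13, Mup15, Mup17, Mup20 and Mup21, among the 54532 genes of the count table. The 10 were chosen by gene name after their levels and their spread between livers had been seen, so levels and spread are given as descriptions with no test. A further 12 protein-coding Mup genes and 27 Mup pseudogenes are in the same table. One of these 12 is named Gm21320 in the files, and the GENCODE M21 annotation gives the same gene identifier the name Mup22.

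The study profiled liver RNA of mice with a liver-specific knockout of Cpt1a, collected after a 24 h fast. Cpt1a encodes an enzyme that lets long-chain fatty acids enter mitochondria to be burned. The samples form 1 group of 4 livers, called livers 1 to 4 after the number in their labels. The labels give neither age nor sex and leave unsaid whether each is its own mouse, so differences between the 4 can be technical. Cpt1a was at 24.4, 28.6, 31.1 and 36.9 FPKM in the 4 livers. In the authors' deposited table it was lower than in the reference group (log2 fold change −2.79, adjusted p = 5.27e-51). Other groups enter only through 3 comparison tables that the authors deposited. They pair the Cpt1a knockout with a reference group, the Cpt1a knockout with a Cpt2 group, and the Cpt2 group with that reference group. The names of these tables carry AlbCre for both knockouts, that is, Cre recombinase under the albumin promoter, which acts in hepatocytes. The design speaks of fasted littermate controls and of mice without Cpt2. The reference group is named by Rab30 and Cpt2 together, with no key to its genotype in the sources used here.

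Major urinary proteins are small lipocalins, barrel-shaped carriers of volatile pheromones, which the mouse liver secretes into blood and the kidney passes into urine. Most of their genes are recent copies that lie together on chromosome 4 and are switched on in male liver by pulses of growth hormone through STAT5. Mup20 encodes darcin, a male pheromone that attracts females. Their transcripts are among the most abundant of a male mouse liver and fall when food is short.

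All 10 genes are protein-coding, lie on the minus strand and fall between positions 60066469 and 62150863 of chromosome 4 (GRCm38), a stretch of 2084395 bases. That stretch holds 52 genes of the table, of which 10 are the genes described here, 10 are other protein-coding Mup genes, 26 are Mup pseudogenes and 6 are other genes, none of them protein-coding. The start and end of each of the 10 are the same in the files and in GENCODE M21. No other gene of the table overlaps any of them.

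The 10 genes differ sharply in how much of their sequence is their own. In coding sequence, Mup7, Mup11, Mup12, Mup13, Mup15 and Mup17 differed from each other at 2 to 9 aligned bases. The proteins of Mup11, Mup12, Mup15 and Mup17 differed from each other at 1 to 5 aligned residues. The longest annotated coding transcripts of Mup7 and Mup13 have a different end, so their proteins are not set beside these. Identity between these 6 was 98.5% to 99.6% over aligned coding bases without gaps. Mup20 was 90.6% to 91.5% identical to these 6, Mup5 89.6% to 90.7%, Mup3 85.1% to 86.0% and Mup21 84.1% to 85.0%. Mup3 and Mup21 were 96.3% identical to each other. The stretch of exon 3 in which the 10 genes and Gm21320 show the most distinct 60-base sequences is printed to show these groups, from GENCODE M21 transcripts, 5′ to 3′. Capitals mark bases that differ from the most common base of the 11 genes at that place.
Mup17 (chr4:61594365-61594424): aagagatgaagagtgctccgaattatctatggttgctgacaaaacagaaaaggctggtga
Mup15 (chr4:61438237-61438296): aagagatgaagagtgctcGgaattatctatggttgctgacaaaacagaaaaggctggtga
Mup13 (chr4:61226765-61226824): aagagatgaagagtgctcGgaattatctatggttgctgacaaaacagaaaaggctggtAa
Mup5 (chr4:61833721-61833780): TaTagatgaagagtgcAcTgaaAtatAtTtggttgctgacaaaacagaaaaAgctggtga
Mup20 (chr4:62052650-62052709): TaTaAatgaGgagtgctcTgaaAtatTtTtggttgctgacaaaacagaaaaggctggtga
Mup3 (chr4:62085973-62086032): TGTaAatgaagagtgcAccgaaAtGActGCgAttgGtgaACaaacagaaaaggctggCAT
Mup21 (chr4:62149368-62149427): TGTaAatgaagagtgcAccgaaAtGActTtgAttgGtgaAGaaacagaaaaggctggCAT
Mup7 and Gm21320 carry the same 60 bases as Mup17 here, and Mup11 and Mup12 the same as Mup15. Over these 60 bases, Mup3 has 17 bases unlike the most common one and Mup21 has 16, while Mup5 and Mup20 have 8 each. Mup13 has 2, Mup15 1 and Mup17 0.

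Short reads can be placed on a gene only through sequence that no other gene carries. Transcripts were cut into windows of 100 bases, and a window was counted as shared when the same letters stood in a transcript of another gene. For Mup15, 97.3% of 826 windows were shared, and 22 windows were its own. Mup13 shared 83.6% of its windows, Mup12 77.5%, Mup7 76.1%, Mup11 70.6% and Mup17 59.4%. Mup20 shared 38.8%, all with the pseudogene Mup-ps19. Mup21 shared 4.50% and Mup3 2.23%, all between these 2 genes, and Mup5 shared 1.33%. Gm21320 had no window of its own at 100 bases: 100% of 762 were shared, 92.4% of them with Mup10. At 50 bases Mup15 had no window of its own either. At 300 bases, closer to a whole fragment, the shares were 80.2% for Mup15, 67.6% for Mup12, 46.5% for Mup11, 34.8% for Mup7, 33.4% for Mup13 and 0% for Mup17. Neither the read length nor what the authors' counting did with reads that match several genes is given in the sources used here. Reads can therefore have been split or dropped among the 6 near-identical genes and their relatives, and their single values are uncertain to that extent.

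**Figure D1:**
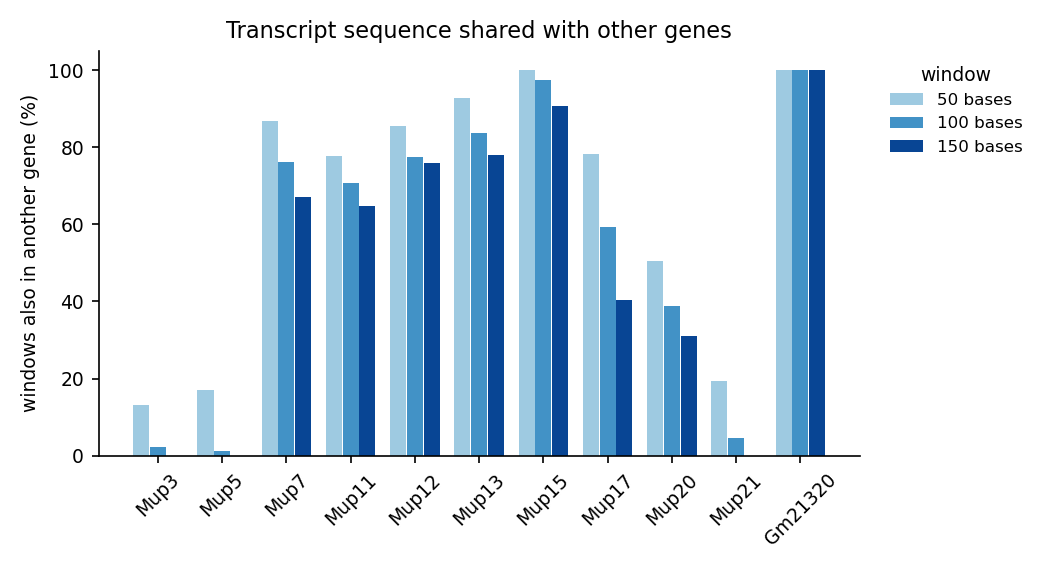
Bars show, for each Mup gene, the percentage of transcript windows of 50, 100 and 150 bases that also occur in a transcript of another gene. Mup15 and Gm21320 stand at or near 100% at 100 bases, and Mup3, Mup5 and Mup21 below 5%.

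The promoters differ in the same grouping. RefSeq (GRCm38.p6) gives promoter windows for 6 of the 10 genes (Mup3, Mup7, Mup11, Mup15, Mup17 and Mup21). The stretch upstream of the start that these 6 windows share is printed 5′ to 3′ to show how alike they are, with capitals where a base differs from the most common one.
Mup11 (chr4:60662502-60662622): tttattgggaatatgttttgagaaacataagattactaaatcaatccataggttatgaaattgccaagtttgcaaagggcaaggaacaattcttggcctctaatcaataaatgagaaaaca
Mup17 (chr4:61595962-61596082): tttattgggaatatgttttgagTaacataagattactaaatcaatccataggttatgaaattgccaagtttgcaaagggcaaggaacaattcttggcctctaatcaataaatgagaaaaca
Mup7 (chr4:60070476-60070596): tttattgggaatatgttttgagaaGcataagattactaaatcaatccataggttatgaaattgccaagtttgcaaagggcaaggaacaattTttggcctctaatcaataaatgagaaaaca
Mup3 (chr4:62087399-62087518): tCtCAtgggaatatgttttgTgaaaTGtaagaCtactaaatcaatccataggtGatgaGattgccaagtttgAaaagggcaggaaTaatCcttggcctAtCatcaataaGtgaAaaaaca
Mup21 (chr4:62150917-62151036): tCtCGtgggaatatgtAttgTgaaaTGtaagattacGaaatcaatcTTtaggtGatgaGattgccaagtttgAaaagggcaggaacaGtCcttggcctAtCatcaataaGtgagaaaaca
Mup15 carries the same 121 bases as Mup17. Mup11, Mup15, Mup17 and Mup7 differ from the most common bases at 0 to 2 places, Mup3 at 16 and Mup21 at 18. The sequence ATCAAT, the core bound by the liver factor ONECUT1, occurs at 2 places in each of the 6 promoter windows on either strand. Of all 32851 promoter windows, 7.54% hold it. The STAT5 form TTCNNNGAA is in none of the 6 windows and in 8.30% of all. Each window reaches 250 bases before the RefSeq start, so sequence farther upstream was not searched. The TATA sequence TATATAA stands in 5 of 6, against 3.24% of all, and TATAAA in none, against 13.6% of all. In Mup7, which lacks TATATAA, the printed stretch ends 0 bases before the RefSeq start, against 106 in Mup11. The Mup7 window, which ends 50 bases after the start, may not reach the same place. The 6 windows are alike in sequence, so for none of these motifs are they 6 independent matches to set against all promoters. These motifs were chosen with the sequences in view, and do not overlap each other except that TATATAA and TATAAA share letters.

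Library totals ran from 13138884 to 14116441 counts. Transcripts of Y-linked genes such as Ddx3y (18.0 to 21.1 FPKM) were present in all 4 livers, and Xist was at most 0.022 FPKM. The summed FPKM of 9 hepatocyte markers, albumin among them, was 28276, 19640, 24811 and 24705 in livers 1 to 4. The summed FPKM of the Kupffer cell markers was 102 to 128, of stellate cell markers 18.9 to 25.1, of endothelial markers 34.8 to 37.3, of red blood cell markers 147, 409, 338 and 302, and of bile duct, lymphocyte and neutrophil markers at most 3.69. The summed FPKM of 3 adipocyte markers was 0.11 in liver 1 and 0 in the other livers, with Lep at 0 in all livers.

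The abundant genes come first. FPKM, the authors' unit, scales counts by gene length and library size, so that genes can be compared in level. Mup3 was at 5948, 7655, 6214 and 5599 FPKM in livers 1 to 4, a mean of 6354 ± 903 FPKM (SD, n = 4), and ranked 6 of all genes by mean FPKM. Liver 2 was highest, and the highest liver was 1.37 times the lowest. Mup20, the darcin gene, was at 996, 1673, 1207 and 1586 FPKM, a mean of 1365 ± 319 (SD, n = 4). It was highest in livers 2 and 4. The spread of both genes, an SD of 0.20 for Mup3 and 0.35 for Mup20 on the log2(FPKM + 1) scale, can be set beside a median SD of 0.21 over 5301 genes with a mean FPKM of at least 5. Without liver 2 the SD of Mup3 was 0.08.

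Mup7 was at 1309, 3705, 1499 and 2078 FPKM, a mean of 2148 ± 1089 (SD, n = 4), and ranked 23 by level. Liver 2 was again the highest, and without it the SD of 0.67 on the log2 scale became 0.34. Mup12 was at 1121, 2939, 601 and 1631 FPKM, a mean of 1573 ± 1003 (SD, n = 4). It was highest in liver 2 and lowest in liver 3, and its SD was 0.96. Mup3, Mup7, Mup12 and Mup20 were the 4 genes with a mean above 1000 FPKM. The lowest value of Mup3 lay above every value of the others, while the ranges of Mup7, Mup12 and Mup20 overlapped.

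Among the less abundant near-identical genes, the highest liver was 12.3 (Mup11), 54.9 (Mup13), 148 (Mup17) and 257 (Mup15) times the lowest. Mup15 was at 304, 963, 3.75 and 55.9 FPKM, from 4225, 13396, 55 and 813 counts. Its mean was 332 ± 441 (SD, n = 4). Liver 2 stood highest and liver 3 lowest. Mup17 was at 61.8, 823, 5.57 and 45.6 FPKM, a mean of 234 ± 393 (SD, n = 4). Liver 2 stood alone at the top, and liver 3 was lowest with 82 counts against 11470 in liver 2. The SD on the log2 scale was 3.33 for Mup15, the widest of the 10 genes at this setting, and 2.86 for Mup17. Mup5 was wider than Mup15 with a pseudocount of 0.1 (3.96 against 3.46) and on counts scaled by size factors (4.21 against 3.46). Without liver 3 the SD of Mup15 was 2.05, below Mup5 at 2.62 and Mup17 at 2.28, and without liver 2 that of Mup17 was 1.77.

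Mup13 was at 35.3, 281, 5.12 and 77.6 FPKM, with 80 counts in liver 3 and 4162 in liver 2. Mup11 was at 117, 373, 30.2 and 53.5 FPKM. Both had their highest value in liver 2 and their lowest in liver 3. The SD on the log2 scale was 2.31 for Mup13 and 1.55 for Mup11. It became 1.49 for Mup13 without liver 3 and 0.96 for Mup11 without liver 2.

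Mup21, the close relative of Mup3, was at 47.5, 154, 89.0 and 83.7 FPKM, a mean of 93.7 ± 44.5 (SD, n = 4). Liver 2 was highest and liver 1 lowest, with an SD of 0.69 on the log2 scale. Mup5 behaved apart from the rest. It was at 31.8 FPKM in liver 1 (442 counts), 1.38 FPKM in liver 4 (20 counts) and had 0 counts in livers 2 and 3. Its SD of 2.38 rests on liver 1, and without liver 1 it was 0.72. It shares 1.33% of its 100-base windows with other genes.

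**Figure D2:**
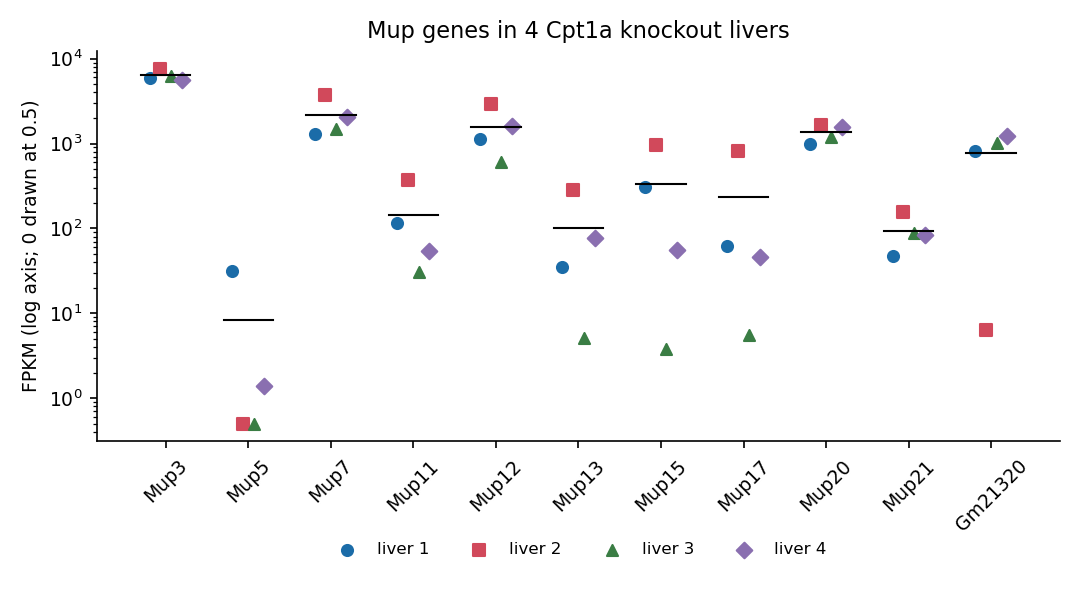
Points give the FPKM of each Mup gene in each of the 4 livers on a log axis, with the mean as a line and 0 drawn at 0.5. Liver 2 is highest for every gene of the 10 except Mup5, while Gm21320 at the right is lowest in liver 2.

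Of the 10 genes, 9 had their highest value in liver 2, and Mup5 in liver 1. The lowest value was in liver 3 for 5 genes, in liver 1 for 3 and in liver 4 for 1. Among the 5301 genes with a mean FPKM of at least 5, the spread on the log2 scale ranked 2 for Mup15, 3 for Mup17, 4 for Mup5 and 5 for Mup13. Mup11 ranked 13 and Mup12 65, so that 6 of the 10 were among the 100 widest. Mup5 passed the filter on level only through liver 1, at 31.8 FPKM against at most 1.38 in the other livers. Its rank therefore comes from the value that let it in. Mup21 ranked 183, Mup7 200, Mup20 989 and Mup3 2848. Of all 5301 genes, 57 had an SD above 1.

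**Figure D3:**
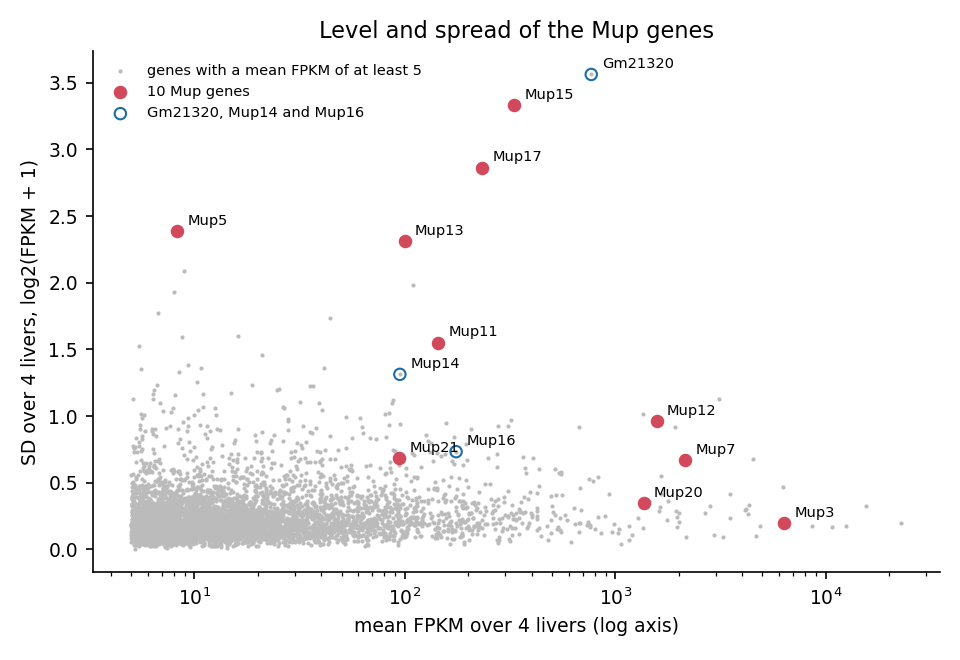
Each point is a gene, with its mean FPKM over 4 livers on a log axis and its SD over the livers on the log2(FPKM + 1) scale; the 10 Mup genes are filled and labelled. Mup3 at 6354 FPKM lies at the median spread, and Mup15, Mup17 and Mup13 lie far above it.

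The gene with the widest spread of all, rank 1, was the near-identical copy Gm21320 (ENSMUSG00000110439, chromosome 4, 60817589 to 60821463, minus strand). It was at 816, 6.33, 1027 and 1227 FPKM in livers 1 to 4, from 10549, 82, 14029 and 16602 counts. The SD on the log2 scale was 3.56, and without liver 2 it was 0.29, rank 1801. It was low in liver 2, the liver in which Mup7, Mup11, Mup12, Mup13, Mup15 and Mup17 were highest. All 22 protein-coding Mup genes except Mup3, Mup4, Mup5, Mup6, Mup20 and Mup21 were taken as 16 central copies. Among these, identity was measured only for Gm21320, Mup7, Mup11, Mup12, Mup13, Mup15 and Mup17. Within the summed FPKM of the 16 central copies, Gm21320 took 20.4%, 0.066%, 30.1% and 22.9%, and Mup15 took 7.59%, 10.04%, 0.11% and 1.04%. Mup17 took 1.54%, 8.58%, 0.16% and 0.85%. Mup7 held a steadier share of 32.7% to 43.9%. The 16 together were at 4007, 9593, 3415 and 5367 FPKM, and 0.42%, 1.11%, 0.37% and 0.60% of all counts, with liver 2 highest on both scales.

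The other relatives were mostly low. Mup14 was at 107, 159, 19.2 and 94.1 FPKM and Mup16 at 121, 279, 211 and 90.7. Mup1, Mup2, Mup8, Mup9, Mup10, Mup18 and Mup19 had means of 1.08 to 8.77 FPKM, and Mup4 and Mup6 were below 1 FPKM. Mup-ps19, the pseudogene that shares windows with Mup20, had a mean of 189 ± 68.2 FPKM (SD, n = 4).

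Summed over the 10 genes, the level was 9971, 18566, 9655 and 11210 FPKM, a mean of 12351 ± 4198 (SD, n = 4). As a share of all counts it was 1.09%, 2.16%, 1.12% and 1.31%. Liver 2 was 1.92 times the lowest liver, and without liver 2 the ratio of highest to lowest was 1.16. Mup3 made up 59.7%, 41.2%, 64.4% and 49.9% of the sum. The sum of Mup3, Mup20 and Mup21, which share no 100-base window with the other 7, ran from 6991 to 9483 FPKM, a coefficient of variation of 14.5%, or 3.57% without liver 2. The sum of Mup7, Mup11, Mup12, Mup13, Mup15 and Mup17 ran from 2145 to 9084 FPKM, a coefficient of variation of 69.0%, and with the other central copies added it was 49.8%. Without liver 2 these were 29.9% and 23.5%. Liver 2 also had the lowest hepatocyte marker sum, the highest red blood cell marker sum and the highest mitochondrial share of counts (10.9%, against 8.79% to 10.4%). Most of the hepatocyte sum is Alb, at 20761, 12257, 13611 and 15289 FPKM in livers 1 to 4. Alb, Fgb and Serpina1c were lowest in liver 2, and the other hepatocyte markers were not. The red blood cell sum was 147 FPKM in liver 1, against 409, 338 and 302 in livers 2 to 4. The part of these markers and of the mitochondrial share in the Mup values was not tested.

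**Figure D4:**
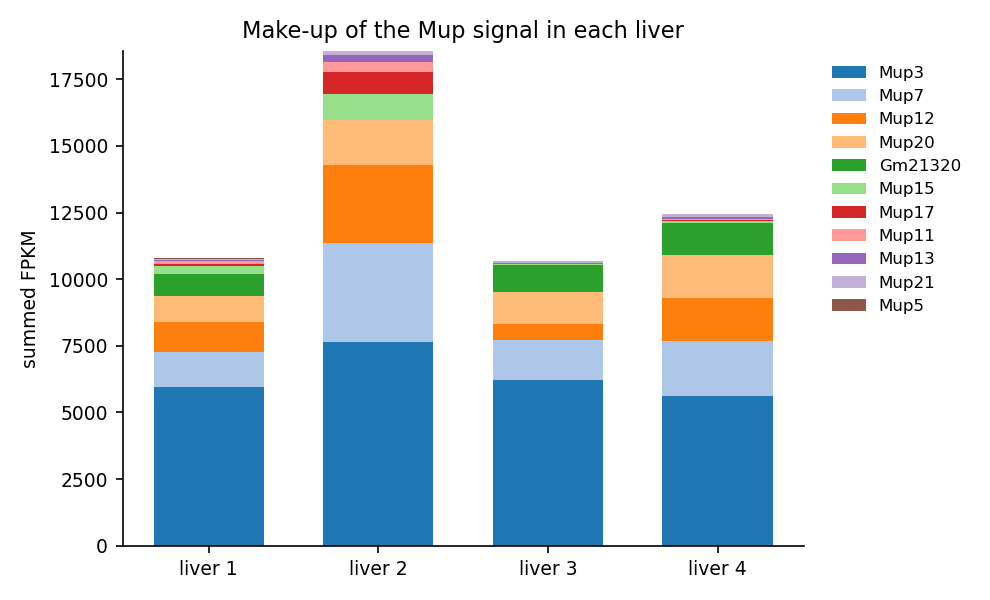
Stacked bars give the FPKM of the 10 Mup genes and Gm21320 in each liver, from 0. Liver 2 stands highest, Mup3 makes the base of every bar, and Gm21320 is visible in livers 1, 3 and 4 only.

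Genes beside the cluster give a comparison for the spread. Within 1 Mb of either end, 14 protein-coding genes outside the family had a mean FPKM of at least 1, and their SD on the log2 scale ran from 0.07 to 0.39 with a median of 0.23. Of the 10 Mup genes, 2 (Mup3 and Mup20) lay within that range and 8 above it. The 10 were chosen with their spread known, so this is a description only. Of the 12 other protein-coding Mup genes, with no filter on level, Mup6 (0.23), Mup10 (0.29) and Mup19 (0.39) lay within it. The rest of the 12 lay above it. Mup6 and Mup10 had means of 0.47 and 1.08 FPKM, where the added 1 FPKM narrows the SD. Their highest liver was 3.11 and 2.51 times the lowest, against at most 1.98 times among the 14 genes beside the cluster. Of the 6 other genes within the cluster, the antisense transcript Gm12909 was the highest, with a mean of 13 FPKM. By distance of the centred log2 values, the 5 genes outside the 10 whose values over the 4 livers lay closest to those of Mup15 were Mup14 (distance 3.67), H3f3c (3.76), Gm8186 (3.85), Mup1 (4.03) and Rps25-ps1 (4.08). With 4 livers such a likeness is a description only. H3f3c and Rps25-ps1 are listed as processed pseudogenes, and H3f3c was at 3.89, 15.5, 0.92 and 1.86 FPKM.

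Against the reference group, the authors' deposited table of the Cpt1a knockout called Mup7 lower and no other gene of the 10. The authors' deposited table puts Mup7 at a log2 fold change of −1.97, a fall of 3.93-fold (adjusted p = 5.86e-09). Over all of about 16862 genes tested, 7.6% were called lower and 6.81% higher at an adjusted p below 0.05. That table leaves out every gene whose unadjusted p exceeds 0.05. Besides Mup7, the authors' deposited table lists Mup12 (log2 fold change −1.50, adjusted p = 0.0967) and Mup17 (−2.66, adjusted p = 0.157), which did not pass, and the remaining 7 genes are not listed. At an unadjusted p below 0.05, 3 genes were lower and 0 higher. For genes it leaves out, the log2 fold changes of the other authors' tables can be added up, with no test. The sum was −0.08 for Mup3, −0.59 for Mup20, −0.86 for Mup21, −1.25 for Mup15, −1.36 for Mup13 and −1.59 for Mup11. Over the 9 genes with a value its median was −1.36, beside 0.01 over 17054 genes. In bulk liver, fewer hepatocytes and less RNA per hepatocyte cannot be told apart.

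Against the Cpt2 group, Mup3 and Mup20 were higher in the Cpt1a knockout in the authors' deposited table. In the authors' deposited table Mup3 was 2.34-fold higher (log2 fold change 1.23, adjusted p = 3.25e-08) and Mup20 was 2.33-fold higher (1.22, adjusted p = 0.000112). Of the 10 genes, 9 had an adjusted p, and 2 were called higher and 0 lower, with the same counts at an unadjusted p below 0.05. Over all 17755 genes tested, 14.2% were called higher and 14.6% lower. Mup11 (1.19), Mup13 (1.05), Mup21 (0.75), Mup15 (0.73), Mup12 (0.39), Mup7 (−0.38) and Mup17 (−0.89) did not pass in the authors' deposited table, with adjusted p from 0.292 to 0.803. The median log2 fold change of the 9 with an adjusted p was 0.75, beside 0.05 over all genes tested. Mup5 has a log2 fold change of 23.7 in the authors' deposited table with no p, and its fold is not interpretable.

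In the Cpt2 group against the reference group, the authors' deposited table called 6 of the 9 genes with an adjusted p lower and 0 higher, with the same counts at an unadjusted p below 0.05. Over all 17475 genes tested, 10.7% were called lower and 10.3% higher. The lower genes in the authors' deposited table were Mup11, 6.85-fold (−2.78 on the log2 scale, adjusted p = 3.4e-05), Mup7, 3.05-fold (−1.61, adjusted p = 1.28e-06) and Mup3, 2.48-fold (−1.31, adjusted p = 0.000266). Mup12 (−1.91, adjusted p = 0.0031), Mup20 (−1.81, adjusted p = 0.00342) and Mup21 (−1.61, adjusted p = 0.0498) were also lower in the authors' deposited table. Mup13 (−2.41), Mup15 (−1.98) and Mup17 (−1.79) had values of like size that did not pass in the authors' deposited table, with adjusted p of 0.327, 0.424 and 0.255. Mup5 is not listed. The median of the 9 was −1.81, beside −0.03 over all genes tested. The 3 tables share their groups, so their values are set side by side and are not independent of each other.

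**Figure D5:**
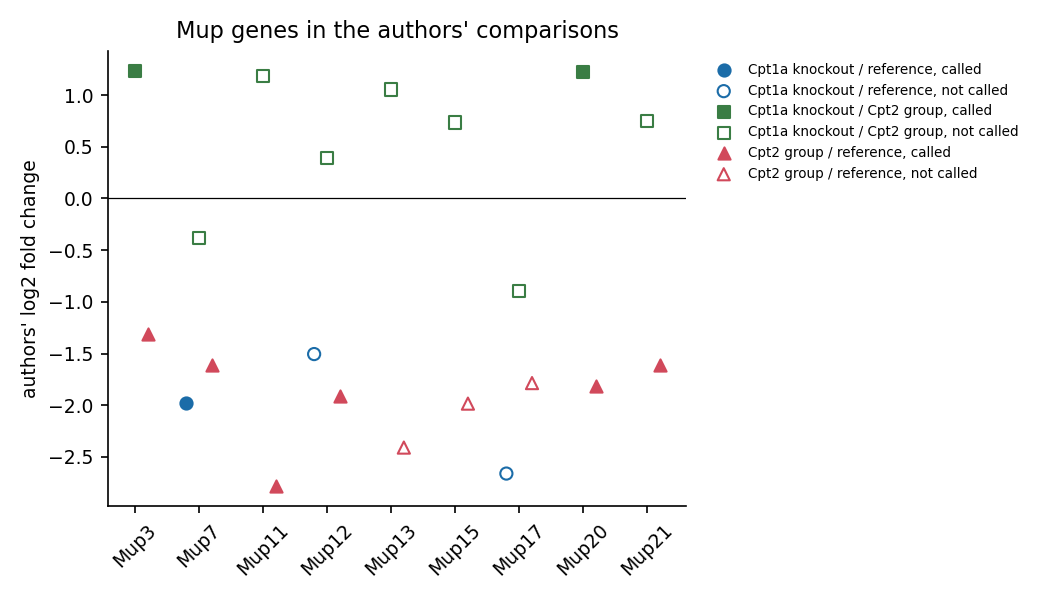
Points give the authors' log2 fold change of 9 Mup genes in each of 3 comparisons where a table lists it, filled where the authors' adjusted p is below 0.05. Mup7 is the filled point in the Cpt1a knockout against the reference group, Mup3 and Mup20 are filled against the Cpt2 group, and 6 genes are filled for the Cpt2 group against the reference group.

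Other Mup genes can be set beside these. In the authors' deposited table, Mup19 was lower in the Cpt1a knockout than in the reference group (log2 fold change −4.62, adjusted p = 0.00505). Mup14 (2.26, adjusted p = 0.00595) and Mup1 (1.96, adjusted p = 0.0445) were higher in the Cpt1a knockout than in the Cpt2 group in the authors' deposited table. For the Cpt2 group against the reference group, the authors' deposited table called 5 of the 10 other genes with an adjusted p lower, Mup1, Mup2, Mup10, Mup14 and Mup18. Gm21320 had log2 fold changes of 1.17 (adjusted p = 0.638) for the Cpt1a knockout over the Cpt2 group and −1.99 (adjusted p = 0.404) for the Cpt2 group over the reference group in the authors' deposited tables, and neither passed. Mup-ps19 was higher in the Cpt1a knockout than in the Cpt2 group (2.59, adjusted p = 3.41e-16) and lower in the Cpt2 group than in the reference group (−2.40, adjusted p = 3.37e-10) in the authors' deposited tables.

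The growth hormone axis and other regulators of Mup transcription were read from a list of 25 genes. Counts called in this list and the lists below stand beside the shares over all genes tested. In the order of the 3 comparisons these were 6.81% higher and 7.6% lower, 14.2% higher and 14.6% lower, and 10.3% higher and 10.7% lower. For the Cpt1a knockout over the reference group, the authors' deposited table called 4 lower and 0 higher. Among those called in the authors' deposited table were the coactivator Ppargc1a (log2 fold change −1.23, adjusted p = 0.00264), the nuclear receptor Hnf4a (−0.70, adjusted p = 0.0166) and Cebpb (−0.98, adjusted p = 0.0199). Ghr, Igf1 and Igfals are not in that table. For the Cpt1a knockout over the Cpt2 group, the authors' deposited table called 7 higher and 2 lower. The higher ones in the authors' deposited table include the growth hormone receptor Ghr (1.00, adjusted p = 1.50e-12) and 2 of its target genes, Igfals (1.01, adjusted p = 3.67e-13) and Igf1 (0.81, adjusted p = 2.48e-05). Of the same list, Socs2 (0.56) was also called higher in the authors' deposited table, while Cish (0.46) did not pass. For the Cpt2 group over the reference group, the authors' deposited table called 8 lower and 1 higher of 24. Ghr (−1.15, adjusted p = 0.00027), Igfals (−1.11, adjusted p = 0.00107) and Igf1 (−0.86, adjusted p = 0.000789) were lower in the authors' deposited table, and Stat5a (0.64, adjusted p = 0.00151) was higher. Socs2 (0.20) and Cish (0.03) were not lower with Ghr and did not pass in the authors' deposited table. Medians of the list were −0.10, 0.33 and −0.36 in these 3 comparisons, the first from the summed values. In the 4 livers Ghr was at 34.3, 39.6, 33.5 and 35.8 FPKM, with no liver apart from the others. Of the 25 regulators, 4 were highest in liver 2 and lowest in liver 3. The share of all genes with that order was not worked out, so this count is a description only. A link to the Mup values was not tested.

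Genes known for male-biased expression, like the Mup genes, were read from a list of 19. The authors' deposited table called 8 lower and 1 higher in the Cpt1a knockout than in the reference group. Cyp2f2 (log2 fold change −1.38, adjusted p = 1.68e-09), the steroid hydroxylase Cyp2d9 (−1.09, adjusted p = 2.10e-07), Susd4 (−1.37, adjusted p = 2.21e-06) and the serpin Serpina1e (−1.23, adjusted p = 2.26e-06) were among the lower genes of the authors' deposited table. C4a was lower as well in the authors' deposited table (−3.59, adjusted p = 6.53e-48), and its reads can be shared with its near-identical copy C4b. For the Cpt1a knockout over the Cpt2 group, the authors' deposited table called 7 higher, led by the transporter Slco1a1 (1.94, adjusted p = 1.37e-16), and 2 lower, of 18 with an adjusted p. For the Cpt2 group over the reference group, the authors' deposited table called 9 lower and 0 higher of 18. The medians were −0.74, 0.23 and −0.88. Of 18 female-biased genes, only 4 had a mean FPKM of at least 1 in the livers and 5 were at 0. The authors' deposited tables called 1 higher and 2 lower, 3 higher and 0 lower, and 0 higher and 3 lower of them in the same order of comparisons. In the last 2 comparisons, 10 and 9 of them had an adjusted p.

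Other lipocalins share the fold of the Mup proteins. Of 14, the authors' deposited table called 3 lower and 0 higher in the Cpt1a knockout than in the reference group: the odorant-binding gene Obp2a (log2 fold change −2.64, adjusted p = 1.34e-07), Orm3 (−2.47, adjusted p = 1.28e-05) and Ambp (−0.81, adjusted p = 0.000412). Ambp lies within 1 Mb of the Mup cluster and was at 748, 545, 711 and 688 FPKM in the 4 livers. For the Cpt1a knockout over the Cpt2 group, the authors' deposited table called 3 higher and 2 lower of 11 with an adjusted p. The 2 lower are near the 14.6% of all genes tested. C8g, a subunit of complement component C8, led the higher ones in the authors' deposited table (1.03, adjusted p = 1.18e-06). For the Cpt2 group over the reference group, the authors' deposited table called 6 lower and 0 higher of 12. The retinol carrier Rbp4 was among the lower ones in the authors' deposited table (−0.66, adjusted p = 2.58e-06).

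Some marker lists moved in the same tables, and others had few calls or none. Of 9 hepatocyte markers, the authors' deposited tables called 0 higher and 6 lower in the Cpt1a knockout than in the reference group, 1 higher and 1 lower in the Cpt1a knockout than in the Cpt2 group, and 0 higher and 6 lower in the Cpt2 group than in the reference group. Of 6 Kupffer cell markers, the authors' deposited tables called 1 higher, 6 higher and 3 lower in the same 3 comparisons, and 0 in the other directions. All 3 red blood cell markers were higher in the Cpt1a knockout than in the Cpt2 group and lower in the Cpt2 group than in the reference group in the authors' deposited tables. Lymphocyte markers were called higher in 3 of 5 in the Cpt1a knockout against each of the other groups in the authors' deposited tables, at a summed level of at most 2.71 FPKM in the livers. In the same order of comparisons, the authors' deposited tables called 0, 1 higher and 1 lower of 4 bile duct markers. Of 4 endothelial markers they called 0, 2 higher and 1 lower. Of 4 stellate cell markers they called 1 higher, then 1 higher and 1 lower, then 0. No neutrophil or adipocyte marker was called. For the Cpt1a knockout over the Cpt2 group, the 1 higher and 1 lower of 9 hepatocyte markers lie near the 14.2% and 14.6% of all genes tested. The part of these lists in the Mup values was not tested.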

How the data were processed

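RNA-seq of 4 mouse livers was used. HISAT2 and GRCm38 (mm10) are the tool and build that the submitters' processing notes name. Which program counted reads, how it treated reads that match several genes, whether it used strand and which annotation release it read is not given in the sources used here. Raw counts per gene fill the deposited count table, and the deposited FPKM table holds FPKM, per the file headers. Another 8 columns of the count table belong to none of the samples and were left out of every step. A further 3 deposited tables give, for each gene, the authors' log2 fold change with its p-value before and after adjustment. Genes with an adjusted p of 1 were taken as not tested.

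Because the samples form 1 group, no test was fitted. Members were called from the authors' adjusted p below 0.05. The partial table's 4461 genes fit an adjustment over 16862 genes. Over 4424 of them, the summed log2 fold change of the other tables differed from it by a median of −0.01. Spread is the SD of log2(FPKM + 1) and was ranked over genes with a mean FPKM of at least 5. The ranking and the window search were tested on simulated data. Every pair of livers differed by more than counting error (chi-square from 18.9 to 62.4 per gene). Transcripts came from GENCODE M21 and promoters from RefSeq. Identities used global alignment in Biopython 1.88 over the protein-coding transcript with the longest coding sequence, and printed stretches used MAFFT 7.526. The printed exon stretch is the gap-free 60-base window after exon 1, within 1 exon of every gene, with the most distinct sequences.

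The 10 genes, the lists and the tests were chosen with earlier results of these data known. Every gene of the family was named by rule, with the 5 genes closest to the widest of the 10, and up to 6 examples from each list in each comparison. Gm21320 and Ghr levels, Gm12909, H3f3c, Socs2, Cish and single hepatocyte markers were also given after their values were seen. Alternatives were other scalings, pseudocounts, filters, thresholds and window lengths, and leaving out each liver. Leaving out each liver was added after seeing the data for Gm21320 and for 3 sums. These are the sums of the 6 near-identical genes, of the 16 central copies, and of Mup3, Mup20 and Mup21. An outlying liver was looked for by the gap to its neighbour over the range, for genes in FPKM. One gene of the regulator list is counted but not reported by name here.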

Additional observations from a re-analysis of the deposited data

Results flagged for a closer look

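In 6 of 27 sets of 4 values, 1 liver lay far from the other 3, by the gap to its nearest neighbour over the whole range. Chance flags about 1 in 20 such sets of independent values, but these genes were chosen with their spread known, and sets that share reads or sum the same genes are not independent, so the number of sets set apart is a description only. Genes were compared in FPKM rather than on the log2 scale, and the rate of 1 in 20 need not hold for such values. Gm21320, at 816, 6.33, 1027 and 1227 FPKM in livers 1 to 4, was not among the 6 sets. Among the 10 genes, liver 1 stood apart for Mup5 with 31.8 FPKM, where the next value was 1.38 FPKM. Liver 2 stood apart for Mup17 with 823 FPKM, where the next value was 61.8 FPKM. Liver 2 also stood apart for 4 other genes of the family: Mup2 with 10.3 FPKM, Mup8 with 3.17 FPKM, Mup9 with 2.40 FPKM and Mup18 with 26.5 FPKM. None of the 7 sums of Mup genes tested was set apart in this way.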

How the results depend on the processing

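No paired analysis was possible because the samples form 1 group. Of 139 alternatives run, 120 stayed within 1.5 times the value reported and 19 moved by more. Some of the 120 could not have moved, such as counts of calls at 0 under stricter settings. None of the measures compared can change sign. The ratio of the highest to the lowest liver in the summed FPKM of the 10 genes was 1.92. Leaving out each liver in turn gave 1.16 to 1.92, and the lowest came without liver 2. Leaving out liver 1 or liver 4 could not change this ratio, since neither was the highest or the lowest. It was 1.98 as a share of counts, 1.93 over every gene whose name starts with Mup, and, in sums added after seeing the data, 1.75 over all 22 protein-coding Mup genes and 2.81 over the 16 central copies. With over 50% of windows shared as the mark, 6 genes passed at 100 bases, 7 at 50, 5 at 150 and 2 at 300 bases, a length added after seeing the data; longer windows match less often by construction. Of the 10 genes, 5 or 6 were among the 100 widest under each filter and measure of spread. The SD of Mup5 depends on the pseudocount, at 3.96 with 0.1 and 1.01 with 10, and was 4.21 on counts scaled by size factors, where 1 count rather than 1 FPKM is added. The 5 genes closest to Mup15 are not stable: 1 to 5 of them recurred under the alternatives. At an adjusted p below 0.01, 5 rather than 6 genes were lower in the Cpt2 group than in the reference group. The other counts of calls did not move. Every alternative was stricter, so a count at 0 could not change. A filter at an FPKM of at least 1 could not move any count of calls, since all 10 genes had a mean of at least 5 FPKM. The 0 to 20 counts of Mup5 in livers 2, 3 and 4 are limited by depth, and the near-identical genes by shared sequence. Over the 4 livers the coefficient of variation of Mup5 was 189%, beside 9.30% from counting alone. The libraries of the other groups were not analysed here.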
